A study of Mus musculus with 96 samples.

Results

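The genes described here encode the enzymes that methylate histone H3 at lysine 9 (H3K9) and the proteins that read or recruit this mark, in single paired daughter cells of cultured horizontal basal cells (HBCs), the reserve stem cells of the mouse olfactory epithelium. The members are the rows of the table with 1 of 9 listed symbols, and no measured value entered that rule. They are 9 of the 55487 genes in the count table: the methyltransferases Suv39h1, Suv39h2, Setdb1, Ehmt1 and Ehmt2, the heterochromatin protein 1 (HP1) genes Cbx1, Cbx3 and Cbx5, and the corepressor gene Trim28. A filter on low values kept the 14463 genes that reached 10 counts in 10% of the cells or more, and all 9 members passed it.

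The transcriptomes came from 96 cells, the daughter cells of 48 divisions, all of 1 group. Wild type adult mice of 6 to 8 weeks received methimazole, a drug that strips the olfactory epithelium of its other cells, and the tissue was dissected 2 days later. The HBCs were then grown on a Tropoelastin coating and moved to Fibronectin, which the study reports to activate them. Each daughter cell was picked by hand after division. Its RNA was sequenced by G&T-seq, with ERCC transcripts spiked into each lysate. No cell was untreated and no gene was altered, and the labels name neither mouse nor culture, so that the 96 cells stand as 1 sample of 1 condition. For this reason no p-value was computed, and every share or correlation below describes these cells only. The intervals cover the sampling of cells or pairs, and not the error of measuring each cell.

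The cells held 29454150 to 44849003 counts on genes, with a median of 36152760, and the spike-in took 1.06% to 5.75% of counts. No library was a copy of another, since the Spearman correlation between any pair of libraries ran from 0.55 to 0.81. The HBC markers Trp63, Krt5, Krt14 and Itga6 were counted in 96 of 96 cells and Icam1 in 86. Of 12 markers of other olfactory cell types, Kit and Sox10 were at 0 in every cell, and only Gap43, counted in 22 cells, passed the filter. Values are given on 2 scales. TPM, a share of all transcripts in the cell that is corrected for gene length, serves to compare genes. Counts divided by a spike-in size factor, called normalized counts, serve to compare the daughter cells of a pair.

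Methylation of H3K9 marks silent chromatin. SUV39H1 and SUV39H2 place the trimethyl mark on repeats around centromeres and telomeres, SETDB1 places it on transposons and genes to which TRIM28 and zinc finger proteins bring it, and EHMT1 (GLP) and EHMT2 (G9a) form a complex that places mono- and dimethylation in euchromatin. The chromodomains of HP1β (Cbx1), HP1γ (Cbx3) and HP1α (Cbx5) bind the methylated lysine, and HP1 in turn binds the SUV39 enzymes, which lets the mark spread and be copied after DNA replication. The study asked whether dividing HBCs pass histones unequally to their daughter cells, and it followed SUV39H1 after its sequencing of such daughters.

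In GRCm38, Suv39h1 is at chrX:8061171-8074760 on the minus strand, Suv39h2 at chr2:3455815-3475031 on the minus strand and Cbx5 at chr15:103191544-103239816 on the minus strand. The others are Setdb1 at chr3:95323525-95357202 (minus strand), Ehmt1 at chr2:24789928-24919614 (minus strand), Ehmt2 at chr17:34898469-34914052 (plus strand), Cbx1 at chr11:96789127-96808640 (plus strand), Cbx3 at chr6:51470360-51483704 (plus strand) and Trim28 at chr7:12999114-13031035 (plus strand). The sequences just upstream of Suv39h1, Suv39h2 and Cbx5 are shown because their levels were among those that went with the cell cycle lists below, and because no annotated exon lies in them. They are the upstream part of the RefSeq promoter windows of GRCm38.p6, which span 250 bases before to 50 bases after each start. They are written 5′ to 3′ on the gene's strand, with letters that match a searched word in capitals.

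Suv39h1, chrX:8074761-8075010: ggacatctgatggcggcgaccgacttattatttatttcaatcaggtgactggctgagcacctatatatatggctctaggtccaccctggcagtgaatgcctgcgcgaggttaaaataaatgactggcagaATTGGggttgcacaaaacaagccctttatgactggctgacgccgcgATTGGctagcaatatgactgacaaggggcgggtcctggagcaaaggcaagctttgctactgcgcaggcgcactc
Suv39h2, chr2:3475032-3475236: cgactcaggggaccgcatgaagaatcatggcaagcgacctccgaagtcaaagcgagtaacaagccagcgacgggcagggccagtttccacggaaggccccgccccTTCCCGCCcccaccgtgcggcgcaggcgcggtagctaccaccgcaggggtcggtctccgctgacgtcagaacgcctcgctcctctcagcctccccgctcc
Cbx5, chr15:103239853-103240102: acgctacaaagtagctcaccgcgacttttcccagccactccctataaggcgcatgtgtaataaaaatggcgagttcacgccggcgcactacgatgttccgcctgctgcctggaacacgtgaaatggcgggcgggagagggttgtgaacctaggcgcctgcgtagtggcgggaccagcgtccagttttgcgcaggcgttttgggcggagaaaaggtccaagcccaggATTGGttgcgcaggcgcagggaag

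The words were those of the E2F site (TTTCCCGC, TTTCGCGC, TTTGCCGC, TTTGGCGC, TTCCCGCC and TTGGCGCC), the CCAAT box and the CHR element TTTGAA, searched on both strands; some E2F words overlap each other. They were picked with these windows already in view. The stretch upstream of Suv39h1 held 2 inverted CCAAT words, printed as ATTGG, that of Cbx5 held 1, and that of Suv39h2 held the E2F word TTCCCGCC. Over the 13 windows of the 9 members, 4 held an E2F word, 3 a CCAAT word and 1 the CHR word. Over all 32851 windows of the table, the shares were 4.45%, 37.4% and 17.9%. A match of letters describes the sequence and does not show that a factor binds there.

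Cbx3 was the most abundant member, Cbx1, Cbx5 and Trim28 lay at like levels below it, and the 5 methyltransferases had the lowest medians. Cbx3 had the highest level, from 37.1 to 326 TPM over the 96 cells with a median of 184.7. It exceeded Cbx5 and all 5 methyltransferases in 96 of 96 cells, Cbx1 in 95 and Trim28 in 89. Cbx1 followed with 7.62 to 190 TPM and a median of 76.8, and Cbx5 with 3.44 to 154 TPM and a median of 64.3. Trim28, the scaffold that brings SETDB1 to its targets, ran from 0.615 to 366 TPM with a median of 79.3. Trim28 and Cbx1 did not separate in level, since Cbx1 was the higher in 52 of 96 cells, and Trim28 exceeded Cbx5 in 56.

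Among the methyltransferases, Suv39h1 had the highest median level, 32.0 TPM, with a lowest value of 0.0324 and a highest of 118. Ehmt1 was next with a median of 28.0 TPM, from 0.220 to 113, and the order of these genes was not fixed, as Ehmt1 was the higher in 49 of 96 cells. Setdb1 had a median of 19.7 TPM, from 0.0452 to 94.1. Ehmt2 had a median of 14.0 TPM, from 0 to 95.5, although its protein works in a complex with that of Ehmt1. Suv39h2 was lowest with a median of 2.14 TPM, from 0 to 28.4, and lay below its paralog Suv39h1 in 82 of 96 cells. The 3 HP1 genes together reached a median of 340 TPM against 110 TPM for the 5 methyltransferases, and their sum was the larger in 95 of 96 cells.

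**Figure D1:**
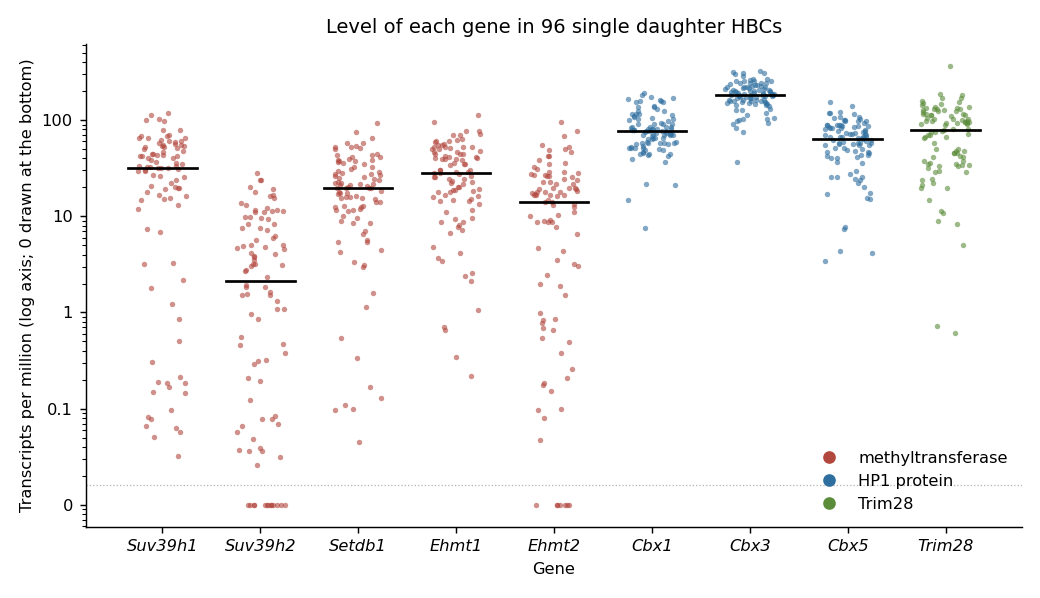
TPM of each member in each of the 96 cells (1 point per cell, log axis, with cells at 0 drawn on the bottom line and the median as a black bar). The HP1 genes form compact groups with medians from 64.3 to 184.7 TPM, while each methyltransferase has a tail of cells far below its median.

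The spread between cells was smallest for the HP1 genes. The coefficient of variation of TPM was 30.1% for Cbx3, 46.7% for Cbx1 and 49.8% for Cbx5. It was 67.9% for Trim28, 72.7% for Ehmt1, 79.5% for Setdb1, 84.6% for Suv39h1, 108% for Ehmt2 and 129% for Suv39h2. Several members had cells with few transcripts. Suv39h1 lay under 1 TPM in 18 of 96 cells, with a lowest count of 3. Ehmt2 lay under 1 TPM in 25 cells and Suv39h2 in 38, against 8 for Setdb1, 4 for Ehmt1, 2 for Trim28 and 0 for the HP1 genes. No count was found for Suv39h2 in 13 cells, so that it was detected in 86.5% of cells (exact 95% interval 78.0% to 92.6%), nor for Ehmt2 in 7 cells, detected in 92.7% (85.6% to 97.0%). The other 7 members were counted in every cell (100%, 96.2% to 100%). All 5 methyltransferases reached 1 TPM in 37 cells, 4 of them in 36 cells, 3 in 15, 2 in 5 and 1 in 3, and no cell lacked them all.

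The next comparison asked how evenly the daughter cells of a division shared these transcripts. The study calls a pair asymmetric from a ratio of 1.5 between its daughter cells, and that cutoff was applied here to the normalized count plus 1 of each gene. Across all 14463 genes and 48 pairs, 65.2% of 694224 gene-pair combinations passed this cutoff, and the median gene passed it in 68.8% of pairs. A cutoff of 2 was passed by 53.2% of the combinations, and scaling to the library total in place of the spike-in gave 64.3% at 1.5. Among abundant genes the share falls with level. When genes were ranked by mean TPM into 10 equal bins, its median was 77.1% of pairs in the 7th bin, 72.9% in the 8th, 64.6% in the 9th and 47.9% in the 10th, the most abundant.

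The HP1 genes were shared most evenly. Cbx3 was asymmetric in 12 of 48 pairs (25.0%, exact 95% interval 13.6% to 39.6%), and the median ratio of higher to lower daughter was 1.22. A share this low or lower was seen in 2.90% of all genes tested, and genes of the same bin had a median of 47.9%. Cbx5 was asymmetric in 17 pairs (35.4%, 22.2% to 50.5%) with a median ratio of 1.28, and 9.95% of genes had a share this low or lower. Cbx1 was asymmetric in 25 pairs (52.1%, 37.2% to 66.7%) with a median ratio of 1.63, below the 64.6% median of its bin. Trim28 was asymmetric in 29 pairs (60.4%, 45.3% to 74.2%) with a median ratio of 1.92, close to the median of its bin.

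Each methyltransferase passed the cutoff in more pairs than any HP1 gene. The count was 37 of 48 pairs for Suv39h1 (77.1%, 62.7% to 88.0%), 42 for Suv39h2 (87.5%, 74.8% to 95.3%) and 34 for Setdb1 (70.8%, 55.9% to 83.0%). It was 36 for Ehmt1 (75%, 60.4% to 86.4%) and 38 for Ehmt2 (79.2%, 65.0% to 89.5%). These shares lay near the background of genes at their level, whose medians ran from 72.9% to 79.2%, apart from Setdb1, which was below its own, and Suv39h2, which was above. The spike-in transcripts, which were added in equal amount to each lysate, gave shares of the same size. The 16 spike-in transcripts with a mean of 4.94 to 33.6 TPM, the range of the 5 methyltransferases, passed the cutoff in 47.9% to 87.5% of pairs, with a median of 77.1%. The 5 spike-in transcripts with a mean of 63.8 to 187 TPM, the range of the HP1 genes and Trim28, passed it in 20.8% to 70.8% of pairs, with a median of 60.4%. The shares of the 5 methyltransferases lay within the range of spike-in RNA of like level, and that of Cbx3 lay near the low end of its range.

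**Figure D2:**
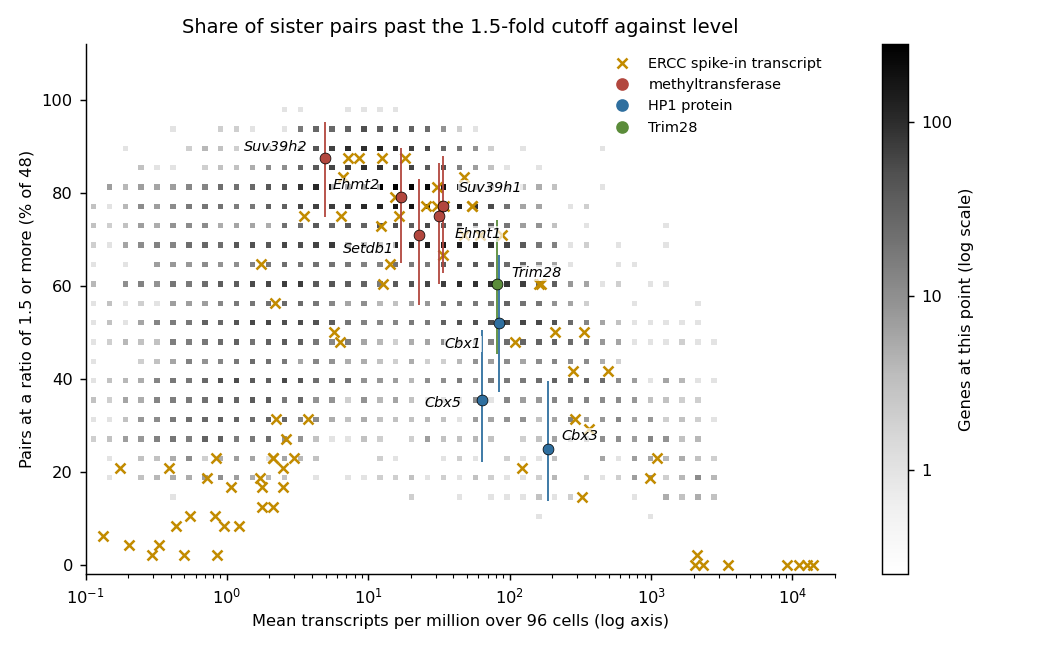
Percent of the 48 pairs at a ratio of 1.5 or more against mean TPM (log axis) for all genes that pass the filter (grey squares, darker for more genes), spike-in transcripts (crosses) and the 9 members (circles with exact 95% intervals). The methyltransferases, at 70.8% to 87.5% of pairs, lie within the cloud of genes and spike-in transcripts of their level, and Cbx3 at 25.0% and Cbx5 at 35.4% lie at its lower side.

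The size of the differences was large in single pairs of the methyltransferases. The median ratio was 2.80 for Suv39h1, 2.08 for Setdb1 and 2.26 for Ehmt1. It was 9.61 for Ehmt2 and 4.81 for Suv39h2, or 9.70 and 3.85 with values under 3 counts set to 3. For Ehmt2, daughter 1 of pair 26 held 6648 counts and daughter 2 held 0, and in pair 39 the counts were 0 and 3505. For Suv39h2, the largest difference was 1129 counts against 0 in pair 47. For Suv39h1, the counts were 1497 and 6 in pair 42, 7 and 1569 in pair 26, and 12 and 2542 in pair 32. Spike-in RNA of like level, added to every lysate, also went uncounted in some cells: ERCC-00025, at a mean of 12.5 TPM, was counted in 71 of 96 cells. A count near 0 therefore does not show that the daughter cell lacked the transcript.

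Setdb1 had 2447 counts against 6 in pair 16, Ehmt1 had 25 against 5174 in pair 23, and Trim28 had 12738 against 45 in pair 4. The HP1 genes had no such pair. The largest ratio of Cbx3 was 5.50, in pair 46 with 1480 and 6583 counts, and that of Cbx1 was 3.51, in pair 29 with 931 and 2582 counts. Cbx5 had 1 pair far from the rest, pair 17 with 14073 and 743 counts and a ratio of 29.0.

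The members did not pass the cutoff in the same pairs as a block. Most pairs were asymmetric for 5 (12 pairs), 6 (20 pairs) or 7 (7 pairs) of the 9 members, pair 11 for only 2 and pair 47 for all 9. The same daughter was the higher for all 3 HP1 genes in 19 of 48 pairs and for all 9 members in 3.

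Daughter cells of a pair can also be more alike than cells of different pairs. This was measured by the intraclass correlation (ICC) of log2(normalized count + 1) over the 48 pairs, which is near 0 where sisters are no more alike than other cells, and had a median of 0.16 over all genes tested. Cbx5 had an ICC of 0.58, above that of 96.6% of genes, Suv39h1 0.48 (91.8%), Cbx3 0.42 (87.6%) and Cbx1 0.36 (82.3%). Suv39h2 had 0.25, Setdb1 0.21, Trim28 0.16 and Ehmt1 0.12. The median ICC of the bins by mean TPM rises with level. It was 0.18 in the 8th bin, that of Suv39h1, and 0.24 in the 9th, that of Cbx5, Cbx1 and Trim28. In the 10th, that of Cbx3, it was 0.41. Cbx3 thus lay near the median of its bin, Cbx5, Suv39h1 and Cbx1 above theirs, and Trim28 below. Ehmt2 had an ICC of -0.06, lower than in all but 10.4% of genes, so that daughters of a pair were no more alike in Ehmt2 than other cells. The deposited file names place the cells in 12 sets of 8, and whether a set was handled together is not stated. Within sets the ICC was 0.49 for Cbx5, 0.44 for Suv39h1 and 0.40 for Cbx3, but 0.24 for Cbx1, 0.09 for Setdb1 and 0.06 for Trim28, against a median of 0.13 over all genes.

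The members were compared with each other over the 96 cells and over the 48 differences between daughter 1 and daughter 2. These points share library depth and, under spike-in scaling, the total RNA of the cell, so each Spearman correlation is given under spike-in scaling and after scaling to the library total. Over cells, the 36 combinations of members had a median correlation of 0.29 under spike-in scaling, all 36 positive, and of 0.15 under the library total, with 30 positive. Over within-pair differences the medians were 0.15 (34 positive) and 0.07 (25 positive). The closest members were Cbx1 and Cbx3, at 0.64 under spike-in scaling and 0.45 under the library total over cells. Setdb1 and Trim28, whose proteins act together, had the closest within-pair differences, at 0.43 and 0.40. Ehmt1 and Ehmt2, also partners, stood at 0.03 over cells under spike-in scaling and -0.07 under the library total.

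The members were also compared with the cell cycle. It was read as the mean log2 value of 20 genes of mitosis and G2, among them Mki67, Cdk1, Ccnb1 and Plk1, whose summed level ran from 29.8 to 6154 TPM over the cells. Under the library total, where the median of all genes was 0.03, the correlation with this list over cells was 0.47 for Suv39h1, 0.46 for Cbx3, 0.37 for Cbx5, 0.33 for Suv39h2 and 0.31 for Cbx1. Each of these was above 96.4% or more of genes. For Setdb1 it was 0.06, for Ehmt1 0.05, for Ehmt2 0.07 and for Trim28 0.03. Over cells, the SUV39 enzymes and the HP1 genes thus went with the mitosis list, and Setdb1, Ehmt1, Ehmt2 and Trim28 lay near the median gene. Under spike-in scaling all values were higher, 0.72 for Cbx3, 0.57 for Cbx5 and 0.55 for Suv39h1, with 0.16 for the median gene.

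With a list of 20 S phase genes, such as Pcna and the Mcm genes, the correlation over cells under the library total was 0.45 for Cbx5, 0.44 for Suv39h1, 0.34 for Suv39h2, 0.33 for Cbx1, 0.33 for Setdb1 and 0.33 for Trim28. Cbx3 stood at 0.17, Ehmt1 at 0.12 and Ehmt2 at 0.08. Over within-pair differences the order was another: Cbx3 stood highest at 0.40, above 99.3% of genes, followed by Suv39h1 and Suv39h2 at 0.33 each and Ehmt1 at 0.26. Setdb1 stood at 0.01 and Trim28 at 0.12, above 51.4% and 75.7% of genes. Under spike-in scaling they stood at 0.09 and 0.24, above 59.3% and 88.3% of genes. Between daughters, Setdb1 thus lay near the median gene, and the relation of Trim28 to the S phase list was weaker than over cells.

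Within pairs, the daughter with more mitosis transcripts tended to hold more Suv39h1. Over the 48 differences the correlation was 0.37 under the library total and 0.42 under spike-in scaling. For the median gene it was 0.02 and 0.08. The same daughter was higher for Suv39h1 and the list in 33 of 48 pairs under spike-in scaling (68.8%, exact 95% interval 53.7% to 81.3%). Under the library total this held in 32 pairs (66.7%, 51.6% to 79.6%). For Cbx3 the correlations were 0.33 and 0.49. The same daughter was higher for Cbx3 and the list in 31 pairs under spike-in scaling (64.6%, 49.5% to 77.8%). Under the library total this held in only 25 pairs (52.1%, 37.2% to 66.7%). For Cbx5 the correlations were -0.05 and 0.04, although its level went with the list over cells. For Cbx1 the correlations were 0.11 and 0.23, and for Suv39h2 0.22 and 0.31. Under the library total, Suv39h2 thus lay above 90.2% of genes, Cbx1 above 72.6% and Cbx5 above 33.0%. In 3 pairs, 17, 38 and 46, the daughters differed by 5.84 or more on the log2 scale of the mitosis list, against at most 3.45 in the others. These were also the 3 pairs with the largest ratios of Cbx3, a match noticed after the values were seen. In pair 46, daughter 1 held 37.1 TPM of Cbx3, 1.22 TPM of Suv39h1 and 0.306 TPM of Mki67, and daughter 2 held 174.9, 32.2 and 90.6 TPM. Daughter 1 had 12360 detected genes and daughter 2 had 13006, beside a median of 12865.5 over all cells (11403 to 14632). Without the 3 pairs, the correlation within pairs under the library total was 0.27 for Suv39h1 and 0.19 for Cbx3, and Cbx3 was asymmetric in 9 of 45 pairs (20.0%).

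Trp63 encodes p63, the transcription factor that holds HBCs in the stem cell state. The study stained p63 and SUV39H1 protein in telophase HBCs. Where p63 was asymmetric, it reports more SUV39H1 on the sister chromatids with more p63. It also reports more Suv39h1 transcript in activated than in renewed HBCs, groups that were not formed here. The values below are transcripts of cells after division, another measure at another stage, and do not test the protein result. The transcript level of Suv39h1 had a weak correlation with that of Trp63, whose sign depended on the scaling. Over cells the correlation was 0.08 under spike-in scaling and -0.11 under the library total, and within pairs 0.06 and -0.03. The same daughter was higher for both genes in 18 of 48 pairs under spike-in scaling (37.5%, exact 95% interval 24.0% to 52.6%). Setdb1 was the member whose within-pair difference lay closest to that of Trp63, at 0.29 under spike-in scaling and 0.27 under the library total. It also went with the keratins of basal cells, at 0.33 for Krt5 and 0.39 for Krt14 within pairs under the library total. Trim28 did so too, at 0.25 and 0.29. For Cbx3 these correlations were negative under the library total, -0.35 and -0.30, and near 0 under spike-in scaling. Of the genes for histone H3.3, Cbx3 went with H3f3b under both scalings, at 0.70 and 0.54 over cells and 0.53 and 0.43 within pairs. Suv39h1 and H3f3a had correlations over cells of 0.31 and -0.08 under these scalings, so that their sign depended on the scaling.

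**Figure D3:**
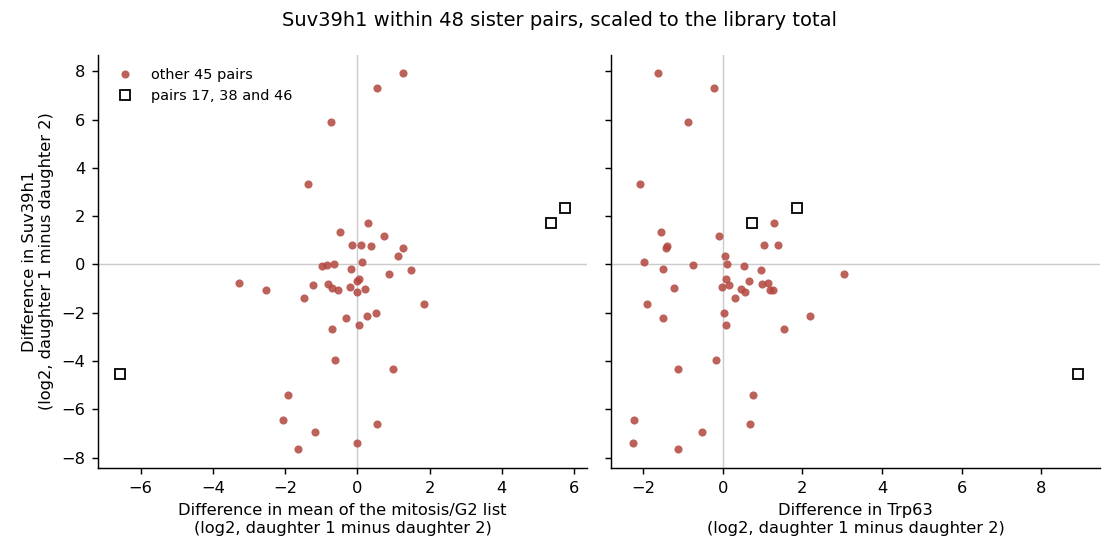
Difference in Suv39h1 between the daughter cells of each pair (log2, daughter 1 minus daughter 2, library total) against the difference in the mean of the mitosis/G2 list (left) and in Trp63 (right), 1 point per pair, with pairs 17, 38 and 46 as squares. The Spearman correlation is 0.37 on the left and -0.03 on the right.

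**Figure D4:**
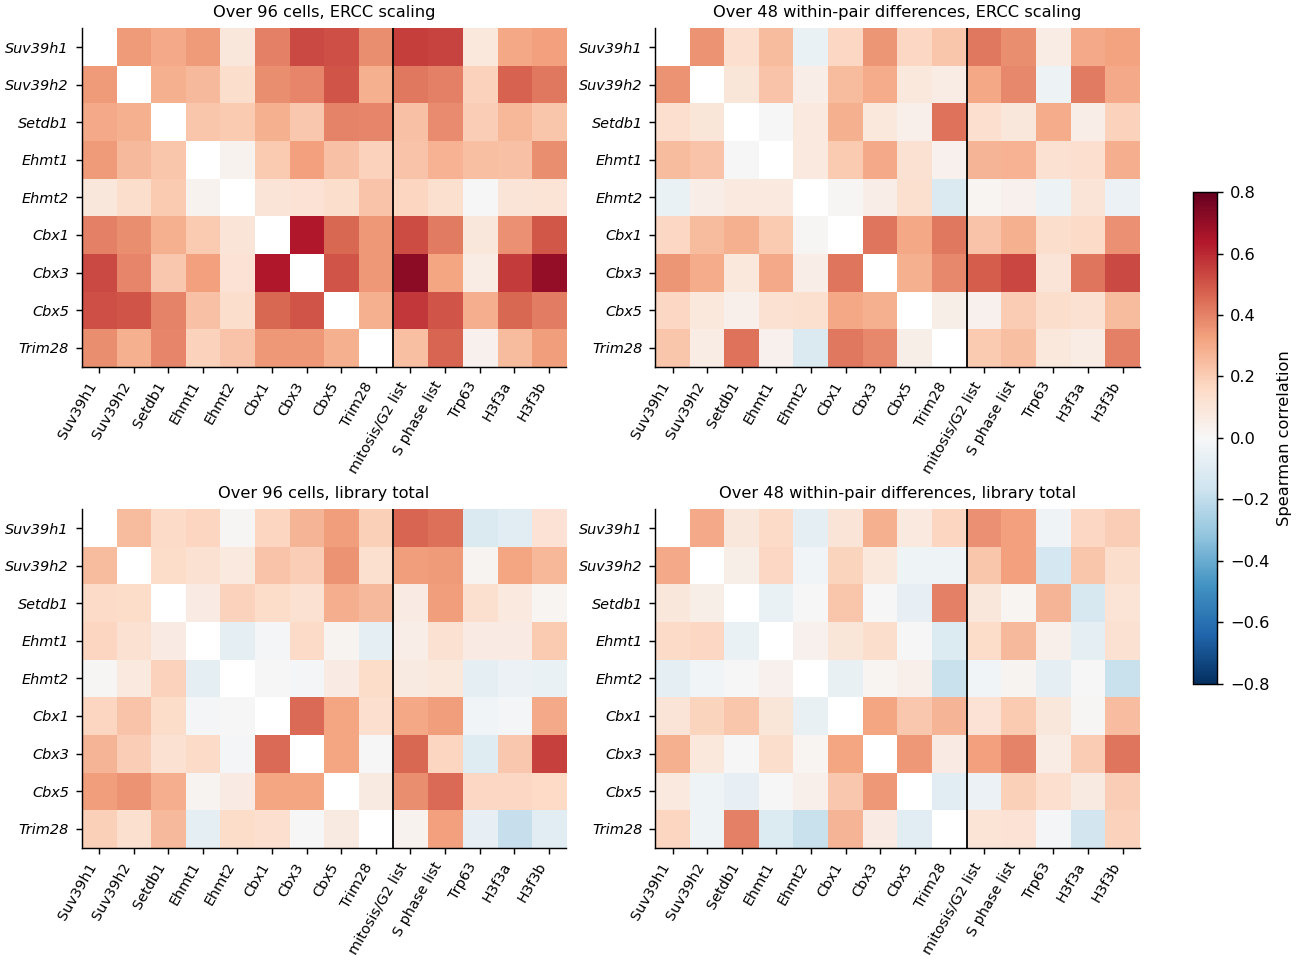
Spearman correlation of the 9 members (rows) with each other, with the cell cycle lists, and with Trp63, H3f3a and H3f3b (columns), over 96 cells and over 48 within-pair differences, under spike-in scaling and library total (red positive, blue negative). The block of Suv39h1, Suv39h2 and the HP1 genes against the mitosis list is positive over cells under both scalings, and the columns of Trp63, H3f3a and H3f3b pale or turn blue for several members under the library total.

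Over all genes that passed the filter, those whose level over the 96 cells lay closest to a member were found under the library total. For Suv39h1 they were Mastl (0.56), Nsl1 (0.55) and Nup133 (0.53), and for its within-pair differences Lig1 (0.60), Slc25a4 (0.59) and Sdhd (0.55). Over cells they were Rpa3, Zmat2 and Anln for Suv39h2 (0.46 to 0.52), Gen1, Pclaf and Dtymk for Cbx5 (0.50 to 0.55), Cnbp, Ncl and Rpl7 for Cbx1 (0.50 to 0.56), and Cct3, Ehd2 and Chaf1a for Trim28 (0.41 to 0.45). Cbx3 had the closest neighbor of any member, Hmgb1 at 0.80, followed by Gm21596 at 0.72 and Cks1b at 0.70. Ehmt1 (nearest Dus4l, 0.38) and Ehmt2 (nearest Dnph1, 0.40) had no close neighbor. The gene nearest to Setdb1, Gm4349 at 0.62, shares 295 aligned bases with it at 99.7% identity, so that reads of 1 may have been counted for the other.

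Of 10 H3K9 demethylases, 9 passed the filter, and all 9 were asymmetric in at least the 65.2% of pairs found over all gene-pair combinations. The median over the 10 was 80.2%, beside 68.8% for the median gene and 81.3% for genes with a mean of 7.98 to 12.4 TPM, where the median demethylase (10.3 TPM) lies. Kdm3a (mean 20.8 TPM) and Jmjd1c (15.3 TPM) were the most abundant, Kdm4d (0.152 TPM, counted in 4 cells) and Phf2 (4.26 TPM) the least. Of the 4 other genes of the PRDM and SET families credited with H3K9 methylation, Mecom had a mean of 37.4 TPM and Prdm2 9.71 TPM, above Setdb2 (6.76 TPM) and Prdm16 (0.960 TPM). No demethylase gene reached the mean level of Suv39h1, 33.6 TPM.

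Of 9 partners of the writers found in the table, 8 were at or above 65.2%, with a median of 75% of pairs. The median gene stood at 68.8%. Genes with a mean of 12.4 to 19.1 TPM, where the median partner (16.1 TPM) lies, stood at 79.2%. The 9 partners include Pphln1 (44.5 TPM) and Mphosph8 (26.9 TPM) of the HUSH complex, which works with SETDB1. At the low end are Atf7ip2 (1.07 TPM) and Cdyl (5.31 TPM). Of 15 partners of HP1, 8 were at or above 65.2%. The median share of the 15 was 72.9%, beside 77.1% for genes with a mean of 19.1 to 29.5 TPM. The median HP1 partner (21.9 TPM) lies in that range. The median ICC of the 15, 0.49, was above the 0.16 of all genes. The S phase list had a median of 0.49 as well, and the mitosis list 0.56. Uhrf1 and Chaf1b are on both the S phase list and this one. Over the 15 partners, the ICC ran from -0.24 (Kmt5c) to 0.66 (Lbr). The most abundant were Uhrf1 (145.8 TPM), which brings DNA methylation to replicated DNA and is also on the S phase list, and Lbr (90.7 TPM), the lamin B receptor that ties HP1 to the nuclear envelope. The least were Adnp (5.82 TPM) and Lrif1 (6.32 TPM).

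Reads of some members could not be assigned with certainty. Cbx3 has 12 near-identical copies in the table (95% identity or more over at least 150 bases), whose summed mean of 7.68 TPM came to 4.10% of the mean of Cbx3. For Setdb1, 2 such genes summed to 3.31 TPM, 14.5% of its mean. Several members overlap genes on the other strand. Dclre1c, with a mean of 4.95 TPM and a highest value of 69.6, overlaps Suv39h2 by 8316 bases, introns included, and its mean is close to that of Suv39h2, 4.94 TPM. Zbtb45, with a mean of 9.67 TPM, overlaps Trim28 by 6137 bases, and Cers2, with 153 TPM, overlaps Setdb1 by 75 bases. The antisense gene Gm14820 overlaps Suv39h1 at a mean of 0.154 TPM. The counting is not stated to use strand, so that reads in such overlaps cannot be told apart.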

How the data were processed

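RNA of 96 single cells, each with ERCC transcripts added, was read as 150-base pairs after G&T-seq. Trimming by the authors used Trimmomatic 0.39, alignment STAR 2.7.11a on GRCm38 (annotation of Ensembl, plus ERCC), and quantification StringTie 2.2.1. The authors deposited unnormalized whole-number counts in 1 table of all cells. For each cell they also deposited a table with the TPM and the coverage of each gene. For all 8832 spike-in values, the deposited count equals coverage times length divided by 75, rounded up, so that 1 count is 75 covered bases and not 1 read; ratios between cells are not affected.

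Counts were divided by ERCC size factors, medians of ratios (0.378 to 1.89) taken over those 22 of 92 spike-in transcripts that had counts in every cell. Ratios and log2 values used a pseudocount of 1. A gene entered the background at 10 counts in 10% of cells. Intervals are exact Clopper-Pearson at 95% on numbers of cells or pairs, and cover the sampling of cells or pairs only. They leave out error in the counts of each cell, such as that from PCR copies. Calculations used Python 3.11.15, numpy 2.4.6, scipy 1.17.1 and pandas 2.3.3, matplotlib 3.10.9 for figures and blastn 2.17.0 for copies, and were tested on simulated data. Copies and promoter windows came from GENCODE and RefSeq tables of the same build, with a promoter window for 9 of 9 members. The rule for the members uses symbols only, but the members and lists were chosen with earlier results of these data known. Named genes were the 9 members, the 2 most and 2 least abundant genes of each list, genes in a listed relation and the 3 nearest genes to each member. Alternatives were other scalings, cutoffs, pseudocounts and set centering; that without 3 pairs was added after the data were seen.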

Additional observations from a re-analysis of the deposited data

How the results depend on the processing

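The share of asymmetric pairs kept its place within its exact interval under the other scalings and pseudocount, except that Suv39h2 came to 66.7% under TPM. At a cutoff of 2 it came to 62.5% for Suv39h1, 52.1% for Setdb1, 52.1% for Ehmt1 and 12.5% for Cbx3, beside 53.2% over all gene-pair combinations. The median correlation among members over cells, 0.29, came to 0.15 under the library total, 0.13 under gene size factors and 0.19 under TPM. That of Suv39h1 with Trp63, 0.08 over cells, came to -0.11, -0.12 and -0.14 in that order and to -0.042 with sets centered. Over pairs, 0.06 came to -0.068 under TPM and -0.059 as Pearson's r. That of Suv39h1 with the mitosis list stayed between 0.45 and 0.63 over cells and between 0.37 and 0.51 over all 48 pairs. Without the 3 pairs it came to 0.33 under spike-in scaling and 0.27 under the library total. Of 98 correlations of 0.2 or more in size between a member and another measure, 5 changed sign, all over cells. Under the library total, gene size factors and TPM, Suv39h1 with H3f3a came to -0.083, -0.15 and -0.054, Cbx1 with H3f3a to -0.0082, -0.10 and -0.012, Trim28 with H3f3a to -0.18, -0.21 and -0.12, and Trim28 with H3f3b to -0.091, -0.12 and -0.0062. Setdb1 with H3f3b came to -0.039 under gene size factors. Suv39h2 lay under 1 TPM in 38 cells, Ehmt2 in 25 and Suv39h1 in 18, which limits what their ratios show. The causes of these shifts were not tested.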
